A study of Mus musculus with 7 samples.

Results

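Type I interferon response genes are the genes that a cell switches on when interferon alpha or beta reaches its receptor. The 34 genes of the list were looked up on the array by symbol, and 32 were found as the only gene symbol of a probe, among 21515 genes measured. The other 2, Oas1a and Ifi44, had no such probe and were not analysed here. Of several probes for a gene the one with the highest average was taken, which applied to Ifi35 alone. Of the 32 genes, 29 were bright enough to be tested, and Ddx60, Mx1 and Mx2 lay under the limit for dim genes of 3.48 on the log2 scale. The study compared genotypes in germinal centre B cells, which are antigen-activated B cells that divide and mutate their antibody genes in the spleen. There were 4 samples labelled wild-type (WT) and 3 labelled RRas2-deficient, meaning deficient in the small GTPase R-Ras2. All 7 samples came from animals injected with sheep red blood cells 7 days before, and the cells were sorted as B220+CD95+GL7+. The labels give no strain, sex, age, allele or number of animals per sample, and say nothing of whether the deletion was limited to B cells. Each sample was labelled with biotin and read on 1 array. Values are log2 intensities, and values on single arrays are always given in the order of the replicate numbers.

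Interferon alpha and beta bind the receptor IFNAR, whose kinases phosphorylate transcription factors of the STAT family. With IRF9 these form the complex ISGF3, which binds a DNA motif called the interferon-stimulated response element and turns on antiviral genes. The products sense viral RNA, degrade it, block its translation, tag proteins with the ubiquitin-like protein ISG15 and feed back on the pathway. Because the same complex turns on many of these genes, they usually move as a block.

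That element is written in the promoters of many of these genes, and a set is shown because it is a feature the list itself did not use. RefSeq promoters (build GRCm38.p6, 250 bases before to 50 bases after the start of transcription) were at hand for 23 of the 32 genes. The core of the element, GAAA followed by 2 bases of any kind and GAAA again, was searched on both strands, so that it reads TTTC, 2 bases and TTTC on the other strand. Matches could overlap. It was found in the promoters of 11 of the 23 genes (47.8%), against 3.99% of the 27025 genes in the table. Counted by promoter, 11 of 27 (40.7%) held it, against 3.44% of all 32851 promoters of the same length of 300 bases. Examples with the core before the start follow, each 5′ to 3′ on the strand of its gene, with every base of a core in capitals.
Isg15, chr4:156200855-156200916, minus strand: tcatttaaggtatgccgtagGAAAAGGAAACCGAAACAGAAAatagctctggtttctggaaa
Ifit1, chr19:34640765-34640833, plus strand: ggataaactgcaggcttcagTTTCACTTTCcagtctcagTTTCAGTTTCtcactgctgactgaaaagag
Ifit3, chr19:34583353-34583436, plus strand: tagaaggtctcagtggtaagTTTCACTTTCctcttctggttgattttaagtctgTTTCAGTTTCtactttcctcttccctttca
Oas3, chr5:120777705-120777754, minus strand: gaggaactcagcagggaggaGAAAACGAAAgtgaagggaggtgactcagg
Bst2, chr8:71537567-71537622, minus strand: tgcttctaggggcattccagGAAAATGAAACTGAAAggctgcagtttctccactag
Stat2, chr10:128270256-128270305, plus strand: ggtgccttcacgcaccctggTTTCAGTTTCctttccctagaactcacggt
The Isg15 promoter held 3 overlapping cores between 78 and 57 bases before the start of transcription, and that of Bst2 held 2 overlapping ones. Ifit1 and Ifit3 each held 2 separate cores. Rsad2 and Ddx60 also had the core before their start, and Ddx58, Eif2ak2 and Ifih1 had one after it. A match is only a run of letters, and the 12 promoter sets without one say nothing about whether ISGF3 acts on those genes.

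The libraries were not alike. On the 3 arrays of WT replicates 1 and 2 and RRas2-deficient replicate 2 the values spread less, with an interquartile range of 2.37 to 2.49, and on the other 4 it was 2.69 to 2.91. These are called narrower and wider arrays below, and both genotypes occur in each. WT replicate 3 stood apart in sex-linked genes: the Y-linked Uty read 5.93 there and 3.09 to 4.31 on the other 6 arrays. Rras2 itself read 7.13, 7.41, 8.66 and 8.39 in WT and 6.93, 6.68 and 7.12 in deficient cells. All deficient arrays lay below all WT arrays for Rras2, and still well above the dim limit. The log2 difference was -0.99 ± 0.39 (SE; limma unadjusted p = 0.0415, adjusted p = 1.00). The exact permutation test of Rras2, two-sided over 35 splits, gave p = 0.114. In WT, Rras2 was 1.26 higher on the wider arrays than on the narrower ones. With the array set as a block in the limma model its difference was -1.13 ± 0.20 (SE, limma unadjusted p = 0.00077, adjusted p = 0.296). The germinal centre markers Bcl6, Fas, S1pr2, Gcsam, Rgs13 and Mki67 were well above the dim limit on all 7 arrays, with a mean over the 6 genes that ran from 8.29 to 8.40 where the spread was narrower and from 9.44 to 9.96 where it was wider. Rgs13, a regulator of chemokine signalling in germinal centre B cells, read 5.86 to 6.44 on the former and 8.58 to 9.59 on the latter. RRas2-deficient replicate 3 had the lowest mean of these markers among the 4 wider arrays, 9.44 against 9.56 to 9.96. Markers of naive follicular B cells (3 of 5 measured) had the opposite order. Their mean was 8.695 and 8.946 in WT replicates 1 and 2, and 9.379 in RRas2-deficient replicate 2. It was lower in WT replicates 3 and 4 (7.378 and 8.038) and in RRas2-deficient replicates 1 and 3 (7.86 and 7.792). Ccr7 and Klf2 separated the array sets, whereas Fcer2a did not. The sets thus differed in B cell markers as well as in spread, and the reason was not tested. T cell markers (6 of 8 measured) averaged 3.91 to 4.72.

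All 29 tested interferon response genes had a higher mean in RRas2-deficient cells, but 25 of them were highest on the same single array, RRas2-deficient replicate 3, and none passed the test. The median log2 difference was 0.25, ranging from 0.02 for Trim25 to 0.54 for Rtp4, while the median over all 16136 genes tested was 0.00 and 51.7% of those were higher. By limma's moderated test with Benjamini-Hochberg adjustment 0 of 29 genes passed, against 0.0124% of all genes tested, and each had an adjusted p of 1.00. At an unadjusted p under 0.05 there was 1, Oas2, against 0.818% of all genes, or 0.521% counting those higher in deficient cells. Oas2 was also the only one of the 29 whose genotypes did not overlap, where 0.719% of all genes lay wholly higher in the deficient cells and 1.08% lay apart in either direction. In sorted cells pooled for RNA, more cells that respond and more RNA per responding cell cannot be told apart.

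**Figure D1:**
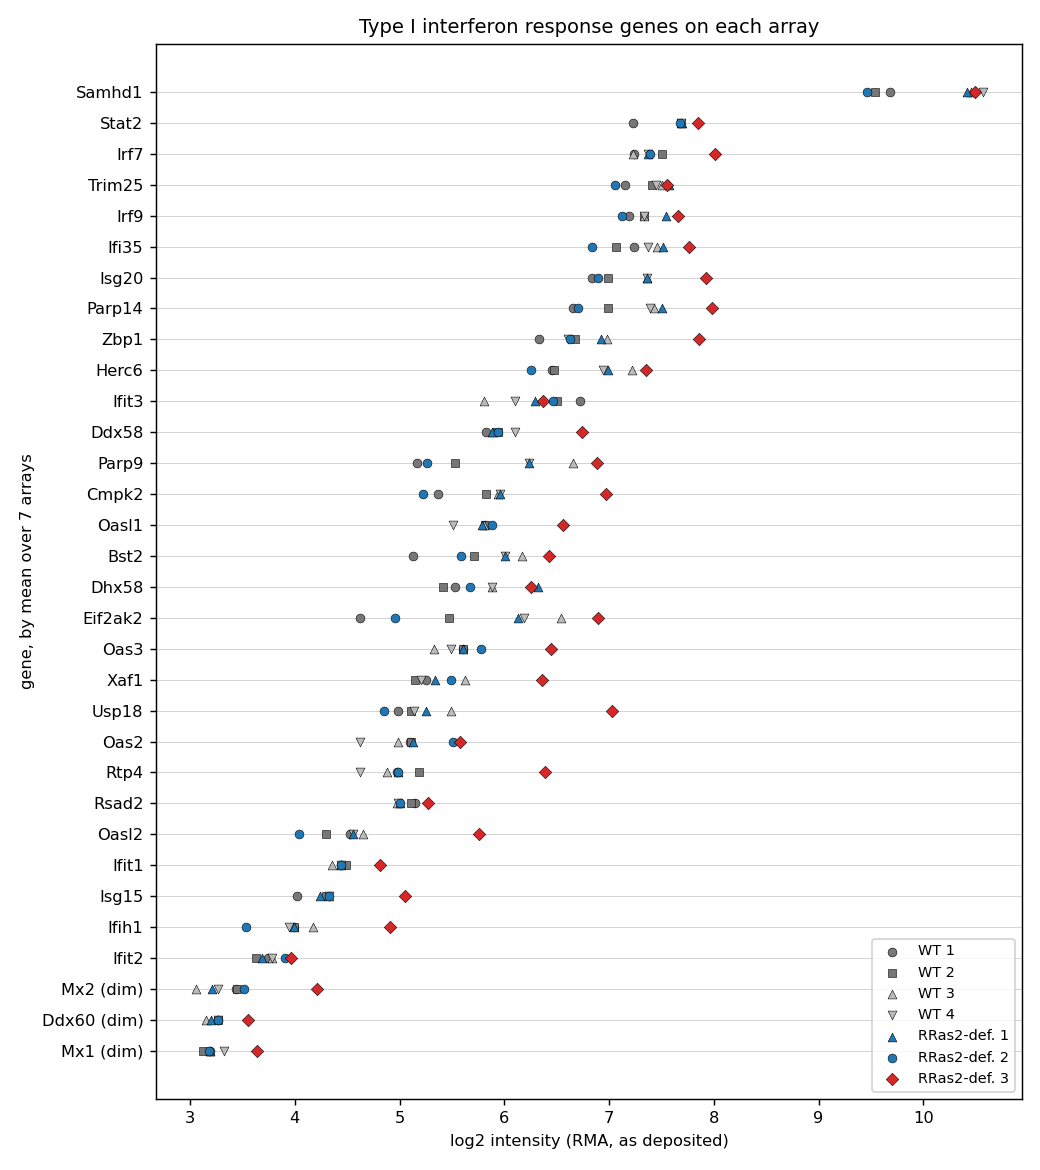
Log2 intensity of the 32 measured interferon response genes on each of the 7 arrays, 1 point per array (WT in grey, RRas2-deficient replicates 1 and 2 in blue, replicate 3 as red diamonds), with genes ordered by their mean. The red diamond is the highest point for 28 of the 32 genes, and the exceptions are Ifit3, Dhx58, Trim25 and Samhd1.

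RRas2-deficient replicate 3 lay above each of the other 6 arrays in 25 of 29 genes, where 9.35% of all tested genes did so. Averaged over the 29 genes, the level was 6.73 on that array. It was 5.79, 5.92, 6.14 and 6.04 on WT replicates 1 to 4 and 6.13 and 5.82 on RRas2-deficient replicates 1 and 2, so the remaining deficient arrays lay inside the WT range. The median distance of replicate 3 from the mean of the other 6 arrays was 0.78 on the log2 scale, or 1.72-fold, and it ran from 0.05 for Ifit3 to 1.89 for Usp18. Over all tested genes that median was 0.01. In 13 of the 29 genes the array exceeded the highest of the others by more than 0.5, as it did in 0.223% of all tested genes. The exceptions among the 29 were Ifit3, highest in WT replicate 1, Samhd1, highest in WT replicate 4, and Dhx58 and Trim25, highest in RRas2-deficient replicate 1. The 3 dim genes were also highest on replicate 3. With a further quantile normalization 23 of the 29 genes were highest there, and 25 with the arrays centred on their medians. Among the 4 wider arrays alone it was 26 of 29, against 22.8% of all tested genes.

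**Figure D2:**
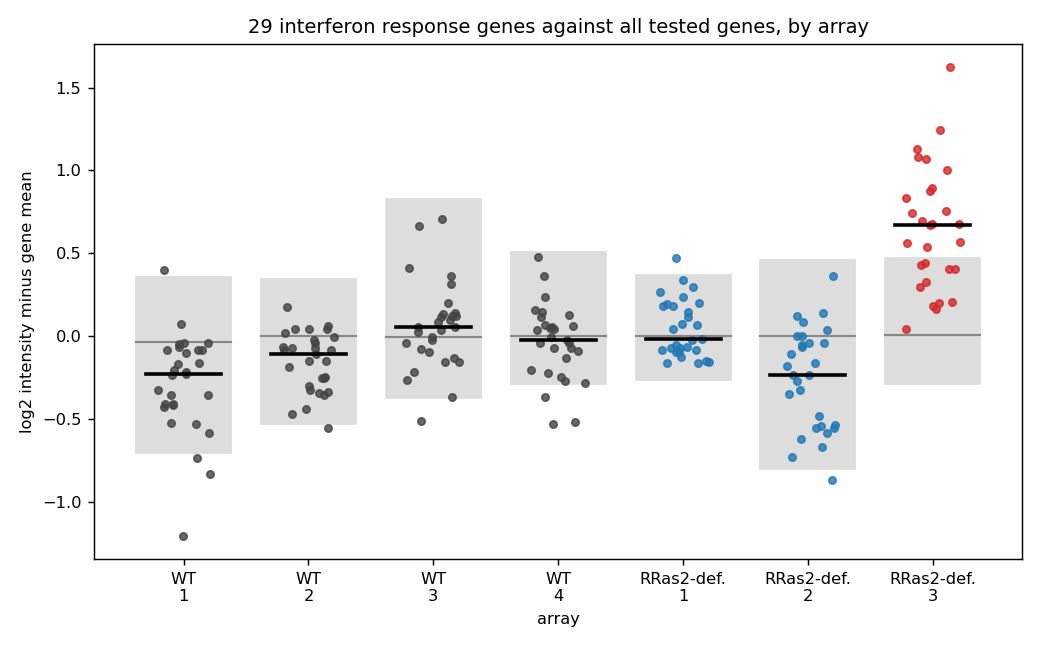
Log2 intensity minus the gene's mean over 7 arrays, by array, for the 29 tested interferon response genes (points, with their median as a black bar) and for all 16136 tested genes (grey box from the 5th to the 95th percentile, grey line at the median). All 29 points of RRas2-deficient replicate 3 lie above 0 with a median of 0.67, and the medians of the other 6 arrays lie between -0.23 and 0.05.

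Without RRas2-deficient replicate 3 the list was split, with 15 genes higher and 14 lower in the deficient cells and a median log2 difference of 0.01 (49% of all genes were higher). By limma 0 of 29 passed, against 0% of all genes, and 0 had an unadjusted p under 0.05, against 0.849% of all genes and 0.576% in the higher direction. Without RRas2-deficient replicate 2 instead, all 29 genes were higher (54% of all genes) with a median of 0.43, and 3 had an unadjusted p under 0.05 (1.16% of all genes). Without replicate 3 the differences farthest from 0 were 0.37 ± 0.19 (SE) for Oas2, 0.32 ± 0.24 for Dhx58 and -0.26 ± 0.16 for Ifih1. The deficient arrays were then set against the WT arrays of their own set. RRas2-deficient replicate 1 lay a median of 0.01 above the mean of the WT arrays of the wider set, with 15 of 29 genes above it and 0 by more than 0.5. Replicate 2 lay a median of -0.08 from the mean of the WT arrays of the narrower set, with 12 of 29 genes above it. Replicate 3 lay a median of 0.56 above the WT arrays of the wider set, with 28 of 29 genes above it. With the array set as a block in the limma model 26 of 29 genes were higher (49.1% of all genes) and the median was 0.16, and 2 genes had an unadjusted p under 0.05, against 10.1% of all genes tested. Without WT replicate 3, the array that differed in sex-linked genes, 28 of 29 were higher (58.2% of all genes) with a median of 0.33.

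**Figure D3:**
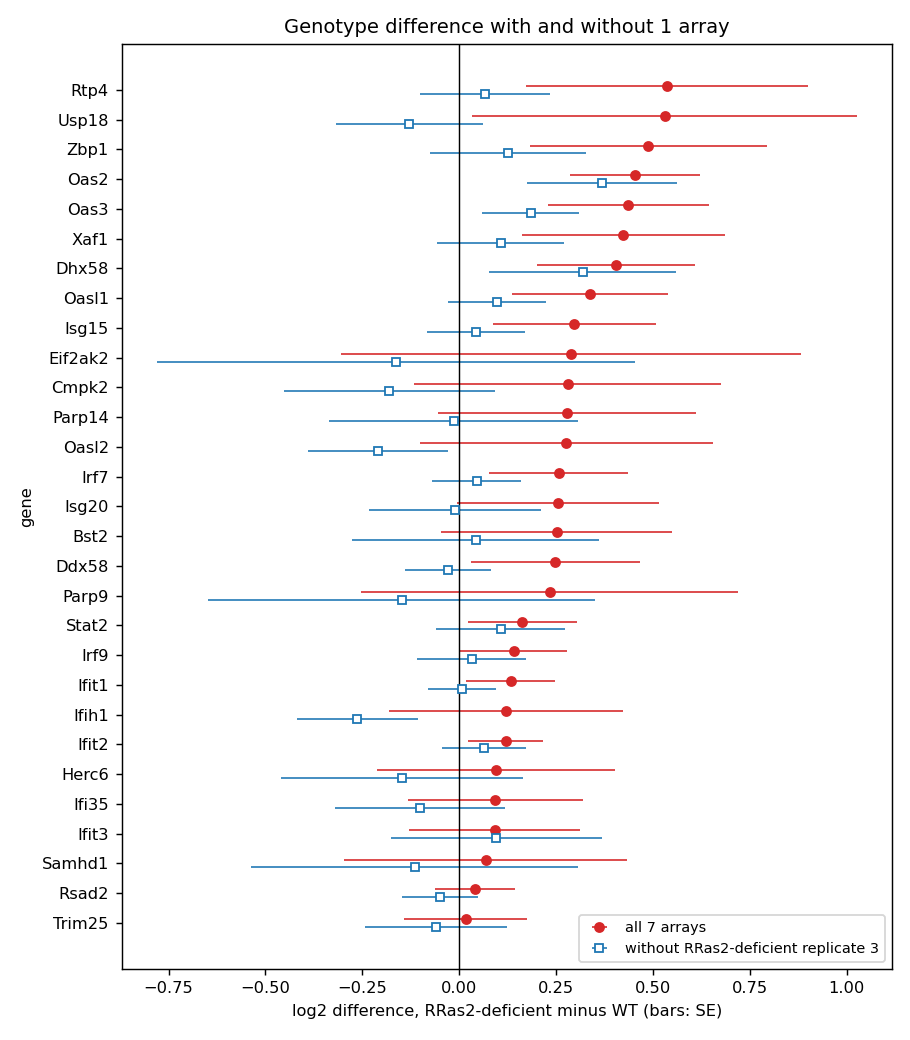
Log2 difference, RRas2-deficient minus WT, with limma's standard error, for the 29 tested genes with all 7 arrays (red circles) and without RRas2-deficient replicate 3 (open blue squares). All red circles lie right of 0, between 0.02 and 0.54, whereas 14 of the 29 blue squares lie left of it.

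The 3 genes of signalling and transcription were measured well above the dim limit. Stat2, a subunit of ISGF3, read 7.23, 7.69, 7.70 and 7.69 in WT and 7.69, 7.68 and 7.85 in deficient cells. Irf9, which gives ISGF3 its DNA contact, read 7.19, 7.34, 7.34 and 7.34 in WT and 7.54, 7.12 and 7.66 in deficient cells. Both genotypes overlapped in these genes. Irf7, the factor that amplifies interferon alpha production and is itself induced, read 7.24, 7.50, 7.23 and 7.37 in WT and 7.37, 7.39 and 8.02 in deficient cells. Only the last array departed from the rest, by 0.51 over the next highest. The log2 differences were 0.16 ± 0.14 (SE) for Stat2, 0.14 ± 0.14 for Irf9 and 0.26 ± 0.18 for Irf7.

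All 6 tested sensors of RNA and other nucleic acids had higher means in deficient cells (median 0.27), and 2 of 6 without RRas2-deficient replicate 3 (median -0.04). Ddx58, the RNA helicase RIG-I that detects short double-stranded RNA with a triphosphate end, read 5.83, 5.94, 5.89 and 6.10 in WT and 5.88, 5.94 and 6.74 in deficient cells. Zbp1, a sensor of Z-form nucleic acid that triggers necroptosis, read 6.33, 6.67, 6.98 and 6.61 in WT and 6.93, 6.62 and 7.86 in deficient cells. In both genes deficient replicates 1 and 2 lay among the WT arrays and replicate 3 above them, by 0.64 and 0.88 over the next highest array. Dhx58, the helicase LGP2 that tunes RIG-I and MDA5, followed another order. It read 5.53, 5.41, 5.89 and 5.89 in WT and 6.32, 5.67 and 6.26 in deficient cells, a log2 difference of 0.41 ± 0.20 (SE) with a limma unadjusted p of 0.0892. On the wider arrays both deficient samples exceeded both WT samples, and on the narrower ones the deficient sample exceeded both WT samples. Oas2 and Oas3 had this order within the array sets too, and its share over all genes was not counted. In the limma model blocked on array set, the Dhx58 difference was 0.32 ± 0.08 (SE, limma unadjusted p = 0.00574, adjusted p = 0.341). In that limma model 10.1% of all genes tested had an unadjusted p under 0.05. Trim25, the ubiquitin ligase that activates RIG-I, read 7.16, 7.41, 7.51 and 7.45 in WT and 7.58, 7.06 and 7.55 in deficient cells, with a difference of 0.02 ± 0.16. Its value on replicate 3 was within the range of the other arrays. Ifih1, the long RNA sensor MDA5, read 4.91 on replicate 3 and 3.54 to 4.17 elsewhere. Eif2ak2, the kinase PKR that halts translation on double-stranded RNA, read 6.90 there and 4.62 to 6.54 elsewhere, and it followed the array sets in WT, 1.32 higher on the wider arrays than on the narrower ones. Ddx60, a helicase linked to RIG-I, was dim, at 3.55 on replicate 3 and 3.16 to 3.27 elsewhere.

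The 2'-5' oligoadenylate synthetase family, whose enzymes make the second messenger that activates the ribonuclease RNase L, held the gene of lowest unadjusted p in the list. Oas2 read 5.10, 5.11, 4.99 and 4.62 in WT and 5.13, 5.51 and 5.58 in deficient cells. Each deficient array lay above each WT array, the lowest of them by a small step. Oas2 averaged 4.95 ± 0.23 in WT (SD, n = 4) and 5.41 ± 0.24 in deficient cells (SD, n = 3). The log2 difference was 0.45 ± 0.17 (SE), or 1.37-fold (limma unadjusted p = 0.0311, adjusted p = 1.00). Leaving out each array in turn gave differences from 0.34 to 0.59. With the array set as a block it was 0.49 ± 0.14 (SE, limma unadjusted p = 0.00942, adjusted p = 0.367), in a model where 10.1% of all genes had an unadjusted p under 0.05.

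Oas3, another gene of this family, read 5.61, 5.61, 5.33 and 5.49 in WT and 5.61, 5.78 and 6.45 in deficient cells, a difference of 0.44 ± 0.21 (SE). Oasl1, an enzymatically inactive relative that restrains Irf7 translation, read 5.82, 5.82, 5.81 and 5.51 in WT and 5.79, 5.88 and 6.56 in deficient cells. Oasl2, a relative that carries ubiquitin-like domains, read 4.53, 4.30, 4.65 and 4.55 in WT and 4.55, 4.04 and 5.76 in deficient cells. In Oasl2 the deficient samples held both the lowest and the highest array of the 7. Without replicate 3 the differences were 0.18 ± 0.12 (SE) for Oas3, 0.10 ± 0.13 for Oasl1 and -0.21 ± 0.18 for Oasl2.

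The IFIT genes, whose proteins bind viral RNA ends and translation factors, differed least on replicate 3. Ifit1 read 4.44, 4.48, 4.36 and 4.44 in WT and 4.44, 4.44 and 4.81 in deficient cells. Ifit2 read 3.74, 3.63, 3.78 and 3.78 in WT and 3.69, 3.91 and 3.97 in deficient cells, close to the dim limit. Ifit3 read 6.72, 6.50, 5.81 and 6.10 in WT and 6.30, 6.46 and 6.37 in deficient cells. That gene was higher on the narrower WT arrays, by 0.66, and replicate 3 lay in the middle of the other arrays. The IFIT promoters shown above hold 2 cores in both Ifit1 and Ifit3, and on replicate 3 the first lay 0.33 above the next highest array while the second did not lead. Ifit1 and Ifit3 belong to a family of similar tandem genes, and the array's probes may read more than 1 of them.

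The ISG15 system showed the widest step on a single array. Usp18, the protease that removes ISG15 and also switches off signalling at IFNAR, read 4.98, 5.11, 5.50 and 5.14 in WT and 5.25, 4.86 and 7.03 in deficient cells. Replicate 3 exceeded the next highest array by 1.54 and the mean of the other 6 by 3.71-fold, while replicate 2 was the lowest of all 7 arrays. The genotype difference was 0.53 ± 0.50 (SE) with all arrays and -0.13 ± 0.19 without replicate 3. Isg15, the modifier itself, read 4.02, 4.30, 4.33 and 4.33 in WT and 4.25, 4.33 and 5.05 in deficient cells, again with 1 array apart. Herc6, the main ligase that attaches ISG15 in mice, read 6.46, 6.47, 7.22 and 6.94 in WT and 6.99, 6.26 and 7.35 in deficient cells. Its order followed the array sets, and replicate 3 led by only 0.13.

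Among effectors that act on virus directly, 6 of 7 were highest on replicate 3. Cmpk2, a mitochondrial nucleotide kinase next to Rsad2, read 5.36, 5.82, 5.94 and 5.96 in WT and 5.96, 5.22 and 6.97 in deficient cells. Isg20, an RNA exonuclease, read 6.84, 6.99, 7.36 and 7.36 in WT and 7.36, 6.89 and 7.92 in deficient cells. Bst2, the tethering protein tetherin, read 5.12, 5.71, 6.17 and 6.002 in WT and 6.002, 5.58 and 6.42 in deficient cells. Replicate 3 led by 1.01 for Cmpk2, 0.56 for Isg20 and 0.25 for Bst2, and replicate 2 was the lowest of the 7 arrays in Cmpk2. Samhd1, which depletes nucleotides, read 9.68, 9.54, 10.45 and 10.57 in WT and 10.42, 9.46 and 10.49 in deficient cells. Replicate 3 did not lead in Samhd1, whose values followed the array sets, 0.90 higher on the wider WT arrays. Rsad2, the enzyme viperin, read 5.27 on replicate 3 and 4.98 to 5.14 elsewhere. The dynamin-like GTPase genes Mx1 and Mx2 were dim, at 3.64 and 4.21 on replicate 3 against 3.12 to 3.32 and 3.05 to 3.51 on the other arrays.

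Of the remaining induced genes all 5 tested were highest on replicate 3. Rtp4, a chaperone of receptors, read 4.98, 5.18, 4.88 and 4.62 in WT and 4.98, 4.98 and 6.39 in deficient cells. It had the largest genotype difference of the list, 0.54 ± 0.36 (SE), and 0.07 ± 0.17 without replicate 3. Xaf1, a promoter of apoptosis, read 5.25, 5.14, 5.62 and 5.20 in WT and 5.34, 5.49 and 6.36 in deficient cells. For Rtp4 and Xaf1 the other deficient arrays lay within the WT range, and replicate 3 led by 1.21 and 0.74. Parp14 and Parp9, which attach ADP-ribose, read 6.65, 6.99, 7.43 and 7.39 against 7.50, 6.70 and 7.98, and 5.16, 5.53, 6.66 and 6.23 against 6.23, 5.26 and 6.89. Ifi35 read 7.23, 7.07, 7.45 and 7.37 in WT and 7.52, 6.84 and 7.76 in deficient cells. These last 3 genes followed the array sets, with replicate 2 low and replicate 3 leading by 0.23 to 0.48.

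**Figure D4:**
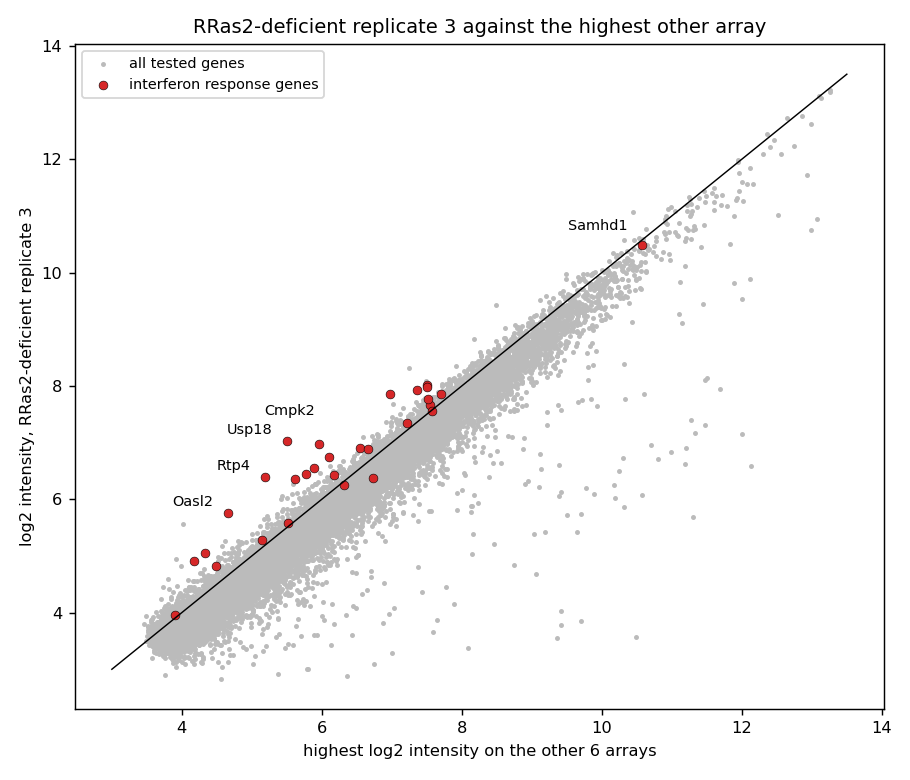
Log2 intensity on RRas2-deficient replicate 3 against the highest of the other 6 arrays, for all 16136 tested genes (grey) and the 29 interferon response genes (red), with the line of equality. Of the red points 25 lie above the line, with Usp18 1.54 above it, whereas 9.35% of all tested genes lie above it.

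The same array led in part of the wider interferon programme, in lists written from textbook knowledge with earlier results known. Of 45 other induced genes tested, 28 had higher and 17 lower means in deficient cells (median log2 difference 0.05), 0 passed, and 23 were highest on replicate 3, against 9.35% of all genes. Averaged over the 52 measured, the level was 6.06 on replicate 3, against 5.57 to 5.85 elsewhere. Rnf213, Slfn5 and Slfn2 led there by more than 0.5, Rnf213 reading 9.43 against 7.63 to 8.48. Other genes of this list had a different order. Trim21, a cytosolic antibody receptor, read 6.67, 6.70, 6.86 and 6.78 in WT and 6.94, 6.91 and 6.98 in deficient cells, without overlap. Uba7, the enzyme that activates ISG15, read 7.65, 7.92, 7.92 and 7.88 in WT and 8.29, 7.93 and 8.04 in deficient cells, the lowest deficient array just above the highest WT array. Their differences were 0.19 ± 0.08 (SE) and 0.25 ± 0.12, with limma unadjusted p-values of 0.0509 and 0.0828 and adjusted p-values of 1.00. Ifi205, a DNA-binding protein of the p200 family, was the 1 gene of the 45 with an unadjusted p under 0.05 (0.25 ± 0.10, limma unadjusted p = 0.0357), near the dim limit. Helz2, a helicase coactivator, differed by 0.30 ± 0.13.

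Genes driven mainly by interferon gamma and genes of MHC class I loading gave 11 higher and 5 lower means among 16 tested (median 0.12), 0 passed, and 7 were highest on replicate 3. Over all tested genes 51.7% had a higher mean in deficient cells and 9.35% were highest on replicate 3. The GTPase gene Gbp4 read 4.92, 5.48, 5.61 and 5.36 in WT and 6.27, 5.42 and 6.10 in deficient cells, a difference of 0.59 ± 0.25 (SE) with a limma unadjusted p of 0.0531. Here replicates 1 and 3 were both high and replicate 2 lay among the WT arrays. Igtp, another GTPase of this class, read 6.01 on replicate 3 and 4.39 to 5.42 elsewhere. Ciita, the master regulator of MHC class II, read 9.32, 9.44, 9.25 and 9.47 in WT and 9.58, 9.49 and 9.48 in deficient cells, a difference of 0.15 ± 0.09. Its deficient arrays lay wholly above the WT arrays, by a small step.

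Upstream of the response, of 17 interferon genes measured 8 lay under the dim limit, among them Ifnb1, singled out for its role, at 2.89 to 2.99 on all 7 arrays. Of the 9 tested, 5 had higher and 4 lower means, 0 passed and 1 was highest on replicate 3. Ifna15 differed by 0.25 ± 0.12 (SE) and Ifnl2, an interferon lambda gene, by 0.44 ± 0.27, and both were highest on RRas2-deficient replicate 2. Receptor and kinase genes gave 5 higher and 4 lower among 9, where 51.7% of all tested genes were higher. Among the 9, 4 were highest on replicate 3, against 9.35% of all tested genes. Ifnar1 read 7.33 there and 6.85 to 7.28 elsewhere, and Tyk2 differed by 0.09 ± 0.12. Among other STAT and IRF genes 5 of 6 had lower means and 0 were highest on replicate 3, with Irf4, a factor of plasma cell fate, at -0.48 ± 0.43 and Irf8 at -0.07 ± 0.10. Of 5 negative regulators 2 had higher and 3 lower means, with Socs1 at 0.12 ± 0.08 and Pias1 at -0.36 ± 0.27. Of 11 upstream sensors and adaptors 4 had higher and 7 lower means. The endosomal RNA receptor gene Tlr7 read 4.90, 4.97, 4.90 and 4.96 in WT and 4.82, 4.49 and 4.89 in deficient cells, wholly lower by a small step (-0.20 ± 0.11), whereas Tlr3 was highest on replicate 3 at 4.28 against 3.67 to 3.85. In all of these lists 0 genes passed limma's adjusted test, and apart from Ifi205 0 had an unadjusted p under 0.05.

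**Figure D5:**
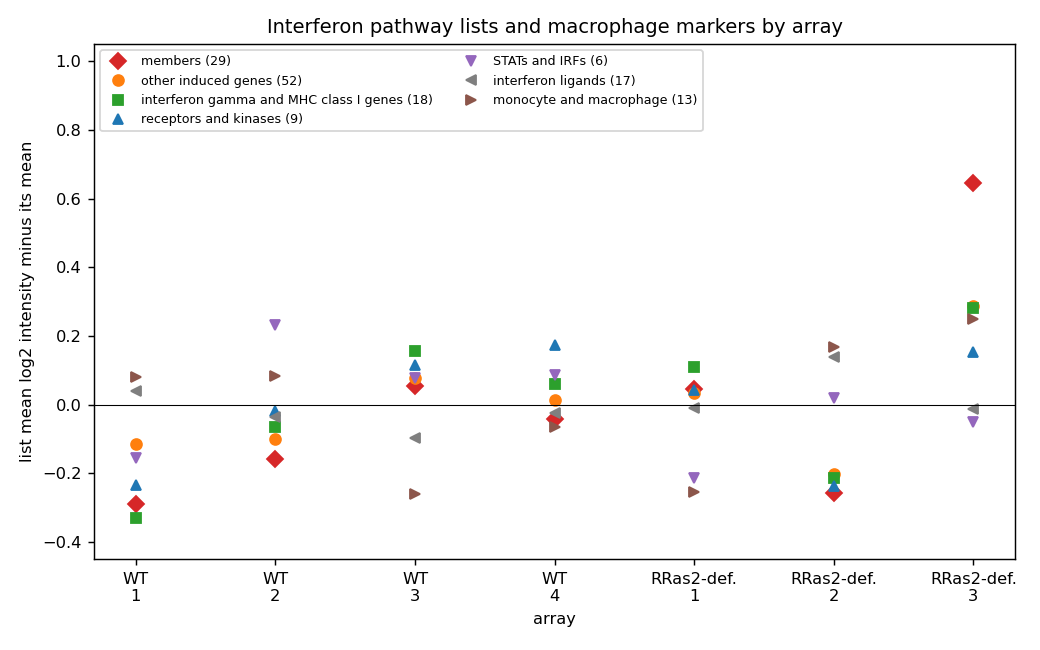
Mean log2 intensity of each list minus its own mean over the 7 arrays, by array, for the 29 tested interferon response genes, 5 lists of related genes and the monocyte and macrophage markers, with the number of genes in brackets. The response genes stand highest on RRas2-deficient replicate 3, while interferon ligands and the STAT and IRF genes lie close to 0 there.

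Markers of other cells were set beside these values. The mean of the 13 measured monocyte and macrophage markers was 4.86 on RRas2-deficient replicate 3 and 4.35 to 4.78 on the other 6 arrays, that is 4.35 to 4.70 in WT and 4.36 to 4.86 in deficient cells. Within its own wider set, the other arrays lay lower: 4.35 and 4.55 on WT replicates 3 and 4, and 4.36 on RRas2-deficient replicate 1. Of the 11 tested, 6 were highest on replicate 3, against 9.35% of all tested genes: Csf1r, Lyz2, C1qa, C1qb, C1qc and Mertk. Csf1r read 5.56 there and 4.47 to 5.33 elsewhere. Other markers did not lead there: Cx3cr1 read 5.65 against 5.50 to 6.23, and Cd68 7.26 against 7.01 to 7.55. Fcgr1 was highest on RRas2-deficient replicate 2, at 4.715 against 4.693 on replicate 3. RRas2-deficient replicate 2 had the second highest mean of these markers, 4.78, and the WT arrays of its narrower set had 4.69 and 4.70. The interferon response genes averaged 5.82 on that replicate and 5.79 and 5.92 on those WT arrays. The macrophage gene Adgre1 and the myeloid integrin gene Itgam read 4.05 and 4.22 on replicate 3 and were highest on replicate 2, a narrower array. Among the wider arrays Adgre1 was highest on replicate 3, against 3.695 to 3.89 on the others. Itgam read 4.22 also on WT replicate 4 and RRas2-deficient replicate 1. Plasmacytoid dendritic cells are a main source of interferon alpha. Their markers (6 of 7 measured) averaged 4.43 on replicate 3 and 4.26 to 4.49 elsewhere, with the defining gene Siglech at 3.66 there and 3.39 to 3.92 elsewhere. Classical dendritic cell markers (7 of 8) averaged 4.30 against 4.19 to 4.33, and neutrophil markers (7 of 7) 3.46 against 3.34 to 3.68. The part of macrophage transcripts in the level of the interferon response genes on replicate 3 was not tested.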

How the data were processed

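The authors deposited a table of log2 intensity for 25349 probes on each of 7 arrays. Per the submitters' processing notes they were made with RMA and the package oligo, versions and genome build not given in the sources used here. RMA as usually run equalizes quantiles of probe intensities before it summarizes them, which need not equalize the interquartile ranges of the summarized values. Those ranges differed here. The arrays were also centred or quantile normalized again as alternatives. Groups follow the genotype that each title names. The animals behind the replicates are not named, so the p-values reflect only how these 7 samples vary. No 2 arrays held identical values. An array has no read depth, so the number of arrays limits the precision.

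Probes with several gene symbols (616) or none (2508) were left out. The dimmest genes, below the 25th percentile of means, were not tested, which kept 16136 genes. Every difference (deficient minus WT), SE and two-sided p came from lmFit and eBayes of limma 3.58.1, run in R 4.3.3, with Benjamini-Hochberg adjustment and a threshold of 0.05. The fit was tested on simulated data. The members, lists and alternatives were chosen with earlier results of these data known. Named genes are all members, with values on each array for the 3 of lowest p and the 2 brightest of each role (all where a role has 5 or fewer), and up to 4 genes of lowest p of each related list; Rnf213, Slfn2, Slfn5, Ifnb1, Uty and the marker genes were named after their values were seen or for their role. Lists were described by counts and medians and not tested.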

Additional observations from a re-analysis of the deposited data

Results flagged for a closer look

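In 5 of 34 groups of WT arrays 1 array lay far from the other 3, by the ratio of its gap to the whole range, and chance alone gives about 1 in 20. Isg15 read 4.02 in WT replicate 1 against 4.30 to 4.33 in the others. Irf9 read 7.19 and Stat2 7.23 in the same replicate, against 7.34 on each of the other WT arrays for Irf9 and 7.69 to 7.70 for Stat2. Oasl1 read 5.51 in WT replicate 4 against 5.81 to 5.82, and Ddx60, which is dim, read 3.16 in WT replicate 3 against 3.27 in the others. In all 5 the array apart was the lowest and the other 3 were tied or nearly so, which makes the ratio large for a small step. The RRas2-deficient group has 3 arrays and was not examined this way.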

How the results depend on the processing

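No member passed the adjusted test under any alternative run. The median log2 difference of the members lay between 0.16 and 0.30 under the alternatives that kept all members and did not leave out 1 array alone, and between 0.01 (without RRas2-deficient replicate 3) and 0.43 (without replicate 2) when 1 array was left out; the count of members with a higher mean then lay between 15 and 29. With the array set as a block and without RRas2-deficient replicate 3 the median was 0.01, with 15 of 29 higher (49.05% of all genes). Over all genes 2 passed, against 5 with array weights, 1 with arrays centred on medians, 1 with the array set block and without RRas2-deficient replicate 3, and 0 to 2 when 1 array was left out. Deviations of each gene from its group mean were correlated between WT and deficient arrays. Correlations of same-numbered arrays were -0.59, 0.78 and 0.66, and WT replicate 1 went best with RRas2-deficient replicate 2 (0.72). All pairs within an array set were positive and all pairs across sets negative, so these correlations cannot show whether replicate numbers pair the samples. With the replicate number as a block, which leaves WT replicate 4 without a partner, 0 genes passed. There 29 members were higher (55.1% of all genes) with a median of 0.30, and the Rras2 difference was -0.82.

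Single members changed sign as follows. With the array set as a block Trim25 was -0.036, Herc6 -0.028 and Samhd1 -0.089; with arrays centred on medians Trim25 was -0.0027; with array weights Samhd1 was -0.084. Without RRas2-deficient replicate 3, with or without the array set block, Trim25 was -0.061. Leaving out 1 array gave ranges of -0.067 to 0.24 for Ifit3, -0.010 to 0.50 for Isg20, -0.21 to 0.65 for Oasl2, -0.26 to 0.43 for Ifih1, -0.029 to 0.40 for Ddx58, -0.049 to 0.085 for Rsad2, -0.13 to 0.96 for Usp18, -0.10 to 0.36 for Ifi35, -0.16 to 0.81 for Eif2ak2, -0.15 to 0.67 for Parp9, -0.014 to 0.63 for Parp14, -0.18 to 0.70 for Cmpk2, -0.074 to 0.18 for Trim25, -0.15 to 0.40 for Herc6 and -0.11 to 0.40 for Samhd1; apart from Ifit3 and Trim25 the lower end is the value without RRas2-deficient replicate 3. The cause of these changes was not tested. The counts of members highest on that array under other scalings and on the wider arrays alone were added after seeing the data.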

Other observations

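Across all tested genes RRas2-deficient replicate 3 exceeded the highest of the other 6 arrays by more than 0.5 on the log2 scale in 36, of which 13 were interferon response genes of the list, 3 were on the list of other induced genes and 1 was on the list of interferon gamma and MHC class I genes. Among the 100 genes with the largest such lead 15 were members on this array and 0 on each of the other 6 arrays. The 19 genes outside the lists, named here after their values were seen, held further genes that interferon is known to induce: Ifi214 (4.94 against 3.24 to 3.91) and Ifi213 (4.83 against 3.23 to 3.99) of the p200 family, and Gm12250, an immunity-related GTPase (5.17 against 4.11 to 4.57). The largest lead of all was that of Slc40a1, the iron exporter ferroportin, at 5.56 against 3.04 to 4.01. Hmox1, the haem-degrading enzyme, read 6.77 against 5.47 to 6.12, Spic, a transcription factor of iron-recycling macrophages in the spleen, 4.48 against 3.77 to 3.93, and the myeloid receptor gene Sirpa 7.10 against 6.14 to 6.59. Without that array the genotype differences were -0.29 for Slc40a1, 0.08 for Hmox1 and -0.0038 for Spic. The larger part of the 19 was not placed in either theme: Gm8995 (lead 1.07), Prss2, Rps19-ps3, Pde2a, Zup1, Zfp738, Rps3a1, Slc35b3, Mir103-2, C130073F10Rik, Pms1 and Uchl3. Whether Slc40a1, Hmox1, Spic, Sirpa and the interferon response genes were high on this array for 1 reason was not tested.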
